A study of Mus musculus with 4 samples.

Results

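The FGF pathway was followed through 10 genes, chosen by their symbol among the 32285 genes counted: the ligand genes *Fgf3*, *Fgf8* and *Fgf10*, the receptor genes *Fgfr1* and *Fgfr2*, and the target genes *Spry1*, *Spry2*, *Dusp6*, *Etv4* and *Etv5*. RNA of single cells of the *Tbx1* lineage was counted by droplet-based 3′ sequencing, in which each captured transcript carries a unique molecular identifier (UMI). Mouse embryos at E9.5 were dissected from the first pharyngeal arch onwards with the heart, pooled by genotype and sorted for GFP-positive, DAPI-negative cells. The question was whether loss of *Kmt2d*, which encodes a histone methyltransferase, alters gene expression in this lineage, and here whether FGF ligands, receptors and targets differ between genotypes and between cell groups.

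Conditional heterozygotes (cHet) were Tbx1Cre/+; Kmt2d F/+; GFP F/+ and conditional knockouts (cKO) were Tbx1Cre/+; Kmt2d F/F; GFP F/+, so the deletion affected 1 or both copies of *Kmt2d* in cells that had expressed Cre. Cre was knocked into *Tbx1*, which left both genotypes heterozygous for *Tbx1*, and neither a *Tbx1* wild-type nor a *Kmt2d* wild-type group was part of the comparison. The labels give outbred SwissWebster mice, whereas the study's methods describe a mix of that stock with C57BL/6. Each genotype had 2 libraries. For Rep1, 4 embryos were pooled into each library with the Next GEM chemistry, and for Rep2, 3 embryos with the GEM-X chemistry, so pool, chemistry and replicate cannot be told apart. The study lists ranges of somite counts that differ between the cHet and cKO pools of each replicate. The part of embryo stage in differences between genotypes was not tested.

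FGF ligands are secreted and bind receptor tyrosine kinases at the cell surface together with heparan sulfate, which starts the Ras and MAP kinase cascade. The cascade turns on ETS transcription factors such as *Etv4* and *Etv5*, as well as inhibitors that damp the signal again, among them the Sprouty proteins and the phosphatase *Dusp6*. In the pharyngeal region, FGFs from ectoderm, endoderm and mesoderm are known to support the survival and growth of neural crest and of the heart field, and *Fgf8* and *Fgf10* have been linked genetically to *Tbx1*.

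The 4 libraries held between 179454146 and 234726019 UMIs, and after filtering 33448 cells remained, 5869 cHet and 6291 cKO cells in Rep1 and 9350 and 11938 in Rep2, with medians of 17240.5 to 22972 UMIs per cell. The libraries of Rep1 shared 87 cell barcodes (0.935% of the smaller list) and those of Rep2 shared 71 (0.538%), and 0 were shared across replicates. The cHet library of Rep1 stood apart before filtering, with 37093 barcodes and a median of 2208 UMIs, compared with 9307 to 16775 barcodes in the others. The cells fell into 20 groups. A group was named for a cell type, as similar to it, where at least 3 markers of that type stood out: ectoderm, endoderm, otic vesicle, endothelium, cardiac muscle, anterior and posterior second heart field (aSHF, pSHF), multilineage primed progenitors (MLPs), branchiomeric muscle progenitors (BrM), neuronal cells and mesenchyme. The names below mean such marker-based groups, and 9 groups without enough markers keep their cluster numbers. The endoderm group met 7 endoderm markers, whereas the aSHF group rested on *Rgs5*, *Hand2* and *Tnc*. These 3 also met the rule in the pSHF and cardiac muscle groups, which with *Isl1* and *Nkx2-5* met 5 aSHF markers each. The aSHF group met the pSHF markers *Tbx5* and *Wnt2* as well. Markers of blood stayed at or below 9.46 CPM (UMIs of a gene, scaled to equal totals of all genes) in every group and those of macrophages at or below 0.412 CPM. Among neural crest markers, *Ets1* reached 300 CPM in a group mean and *Sox10* 73.8 CPM, whereas *Foxd3* and *Sox8* reached at most 7.02 and 6.76 CPM. *Kmt2d* over all cells stood at 17.4 and 15.3 CPM in Rep1 (cHet first), then 23.9 and 21.0 CPM in Rep2. It was lower in cKO in each replicate, but whether the 3′ counts cover the floxed part of the gene was not examined, so these values do not check the deletion.

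All 3 ligand genes were restricted, each in its own way. *Fgf8* (GRCm38 chromosome 19, 45736798 to 45742915, minus strand), the main FGF of the pharyngeal epithelia, was high in ectoderm and endoderm. Its levels in ectoderm were 221 CPM (cHet, Rep1), 190 CPM (cKO, Rep1), 211 CPM (cHet, Rep2) and 220 CPM (cKO, Rep2), a mean of 210 ± 14.4 (SD, n = 4 libraries). Endoderm had a mean of 202 ± 35.8 CPM, with a range of 155 to 233 that overlapped that of ectoderm. It was at 233 and 194 CPM in Rep1 (cHet first), then 155 and 226 CPM in Rep2. Within a library, endoderm was below ectoderm in cHet of Rep2 alone and slightly above it otherwise, so neither group led. These epithelial values stood apart from the next groups, cardiac muscle at 47.0 ± 22.5 CPM, cluster 19 at 25.5 ± 12.6 and the MLP group at 21.6 ± 3.64, which overlapped each other. Lower levels were found in the pSHF (13.3), neuronal (11.6), aSHF (9.87) and BrM (5.63) groups. The order of these groups moved with the clustering: with FGF genes kept in it, *Fgf8* in the aSHF group was at 10.2 to 26.2 CPM. Barcodes with at most 1000 UMIs, which were not kept as cells, held *Fgf8* at 15.9 and 10.1 CPM in Rep1 (cHet first; 73 and 4 UMIs) and at 2.27 and 5.61 CPM in Rep2, and the part of free RNA in the lower group levels was not tested. Ectoderm gave on average 40.6% of all *Fgf8* UMIs and endoderm 22.7%, although each made up at most 4.69% and 3.00% of all UMIs of a library.

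A UMI of *Fgf8* was found in 44.4% to 52.7% of ectoderm cells and in 40.0% to 56.3% of endoderm cells. In endothelium, taken as a low group for comparison, the share was 3.16% to 5.89%. Endothelium joins cluster 20, with 5.07 to 9.79 CPM of *Fgf8*, and cluster 9, with 0.973 to 3.01 CPM. After each cell was thinned to 5000 UMIs, the shares were 28.7% to 37.2% in ectoderm, 26.2% to 47.1% in endoderm and at most 1.90% in endothelium. At equal depth the epithelial shares thus stood well above that of endothelium, and the part of free RNA in these shares was not tested.

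*Fgf10* (chromosome 13, 118669791 to 118792115, plus strand), a ligand of mesenchymal and heart field cells that acts on *Fgfr2*, peaked in the BrM group. It reached 143 CPM (cHet, Rep1), 157 CPM (cKO, Rep1), 257 CPM (cHet, Rep2) and 286 CPM (cKO, Rep2) there. Every BrM library was above every library of the otic vesicle, the next group by its mean, at 49.1 to 108 CPM. A single neuronal library, cKO of Rep2, reached 165 CPM and so lay above both Rep1 libraries of the BrM group. It was below the BrM group of the same library, at 286 CPM. Otic vesicle (83.7 ± 27.0), neuronal (80.6 ± 58.7) and MLP (78.3 ± 9.19) groups could not be separated by their ranges. The pSHF (53.3), aSHF (44.0) and cardiac muscle (38.4) groups were below all 4 MLP libraries, and endoderm (17.0) lay below all libraries of these 3 groups. With FGF genes kept in the clustering, *Fgf10* in cardiac muscle was lower, at 15.0 to 33.5 CPM. A UMI of *Fgf10* was found in 75.3% to 86.0% of BrM cells, against 2.56% to 8.74% of endothelial cells. The endothelial share joins cluster 20, with 6.5 to 44.4 CPM of *Fgf10*, and cluster 9, with 0.90 to 1.95 CPM. The BrM group gave 51.0% of all *Fgf10* UMIs on average, from 7.59% to 12.4% of all UMIs.

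*Fgf3* (chromosome 7, 144838083 to 144844436, plus strand), a ligand with roles in otic and pharyngeal development, was sparse, with 476 UMIs in all kept cells, of which 254 lay in endoderm. Endoderm held 14.7 CPM (cHet, Rep1), 4.41 CPM (cKO, Rep1), 14.3 CPM (cHet, Rep2) and 25.1 CPM (cKO, Rep2). The neuronal group (3.23 ± 1.56 CPM) overlapped with the lowest endoderm library, and otic vesicle cells were at 1.55 ± 1.51 CPM. The share of endoderm cells with a UMI was 9.23% to 22.3%, compared with 0.753% to 2.18% in endothelium. No UMI of *Fgf3* was found in clusters 6, 10, 19 and 21, which allows levels of up to 0.0673, 0.130, 0.291 and 0.558 CPM, counting error only.

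**Figure D1:**
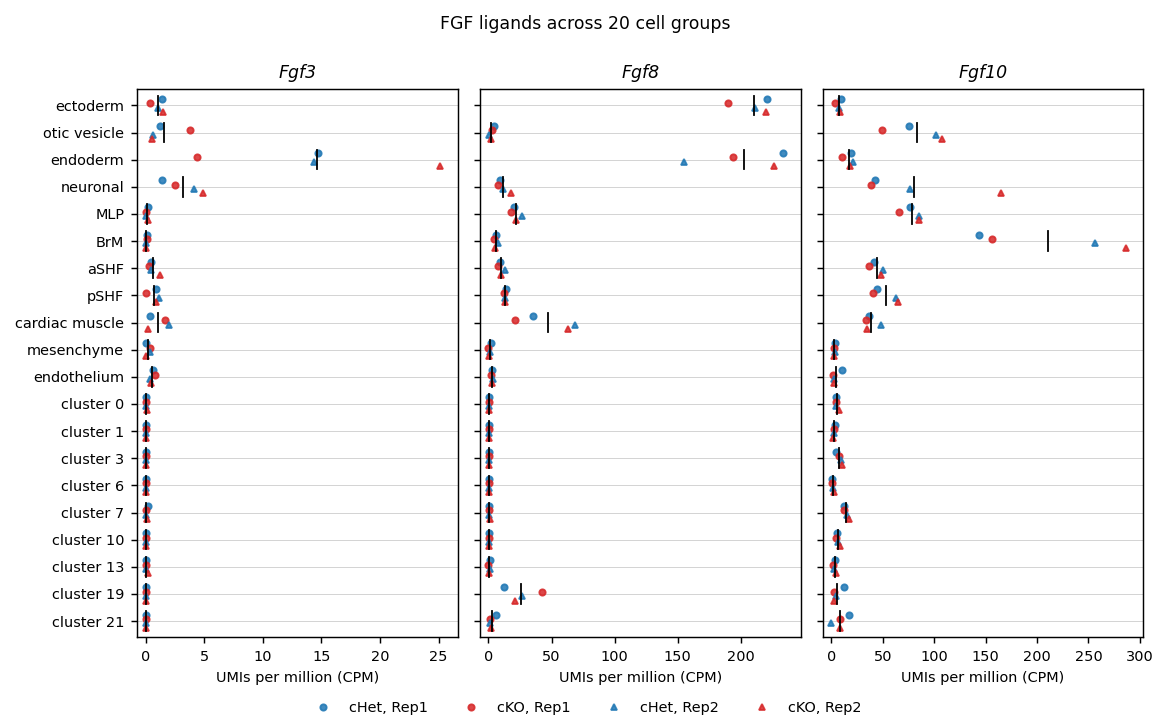
Level of *Fgf3*, *Fgf8* and *Fgf10* (horizontal axes, CPM, linear and scaled for each gene) in 20 cell groups (rows), 1 point per library with cHet in blue, cKO in red, Rep1 as circles and Rep2 as triangles, and the mean as a black bar. *Fgf8* is high in ectoderm and endoderm (190 to 221 and 155 to 233), *Fgf10* in the BrM group (143 to 286) and *Fgf3* in endoderm (4.41 to 25.1).

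In contrast, both receptor genes were found in all 20 groups. *Fgfr1* (chromosome 8, 25513654 to 25575718, plus strand), the broadly expressed mesenchymal receptor, ranged from 26.0 ± 6.27 CPM in cardiac muscle to 100 ± 23.0 CPM in the MLP group. No pair of neighbours in that order had ranges that were apart, and the highest group was 1.56 times the median group. Within each library, however, the MLP group was above cluster 13, the next group by its mean. The MLP group held 78.4 and 82.7 CPM in Rep1 (cHet first) and 124 and 115 CPM in Rep2. Cluster 13 held 64.06 and 63.65, then 94.9 and 91.1 CPM. *Fgfr2* (chromosome 7, 130162451 to 130266808 in RefSeq, minus strand), the receptor through which *Fgf10* is known to signal in epithelia, was highest in ectoderm at 181 ± 3.91 CPM, whose 4 libraries were all above those of the mesenchyme group (152 ± 13.9). It was lowest in endothelium at 54.2 ± 11.0 CPM. Endoderm libraries lay within 107.6 to 108.9 CPM, a narrow range for plain CPM that widened once the libraries were scaled for composition, as described for the genotypes below.

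**Figure D2:**
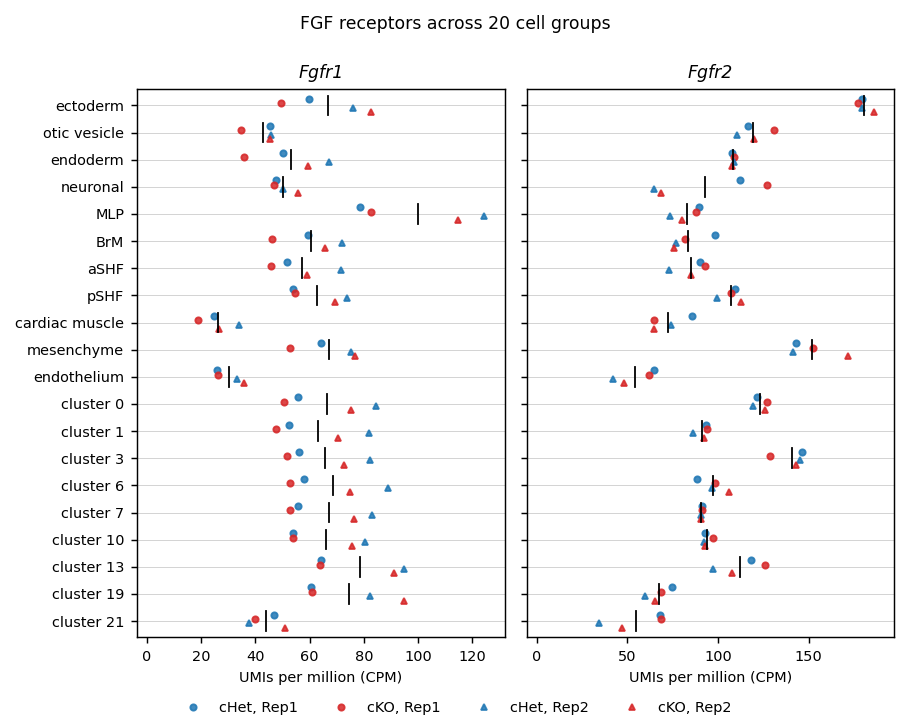
Level of *Fgfr1* and *Fgfr2* (horizontal axes, CPM, linear) in 20 cell groups (rows), with 1 point per library coloured by genotype and shaped by replicate, and the mean as a black bar. Both receptors are present in every group, *Fgfr1* lowest in cardiac muscle (mean 26.0) and *Fgfr2* highest in ectoderm (mean 181).

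The target genes varied more than the receptors. Among the inhibitors, *Spry1* (chromosome 3, 37639947 to 37644598, plus strand), a Sprouty protein that restrains receptor tyrosine kinase signalling, had its highest mean in endoderm. Endoderm held 33.4 CPM (cHet, Rep1), 36.5 CPM (cKO, Rep1), 65.2 CPM (cHet, Rep2) and 103 CPM (cKO, Rep2). Cluster 0, led by *Gabra2*, *Ntrk2* and *Lsamp* and without a cell type name, was next at 56.8 ± 15.2 CPM and overlapped it. In the same order of libraries cluster 0 held 42.5, 45.7, 65.0 and 74.0 CPM. It was thus above endoderm in both Rep1 libraries, level with it in cHet of Rep2 and clearly below it in cKO of Rep2 alone. Cluster 0 gave 27.8% of all *Spry1* UMIs, from 8.67% to 11.5% of all UMIs. *Spry2* (chromosome 14, 105891947 to 105896819, minus strand), the related inhibitor, was highest in the MLP group at 70.0 ± 13.2 CPM. Endoderm followed at 43.1 ± 11.7, with a range that overlapped that of the MLP group, although endoderm was lower within each library. The aSHF group at 33.9 ± 5.85 and ectoderm at 32.5 ± 7.15 lay below all 4 MLP libraries.

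*Dusp6* (chromosome 10, 99263231 to 99267489, plus strand), a phosphatase that inactivates the kinase ERK, was found in all groups and was highest in the BrM group at 124 ± 38.2 CPM, 1.84 times the MLP group (67.5 ± 23.5). The lowest BrM library, of Rep1, lay within the MLP range, but within each library the BrM group was above the MLP group. With FGF genes kept in the clustering, the lowest BrM library (88.7 CPM) was above the highest MLP library (87.3 CPM). Endoderm (67.2), endothelium (65.3) and cluster 19 (61.3), a group led by *Pax3* and *Tcf15*, overlapped the MLP group. It was lowest in cluster 3 at 11.2 ± 4.73 CPM.

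*Etv4* (chromosome 11, 101769742 to 101785371, minus strand), an ETS factor that is a common readout of FGF signalling, was highest in mesodermal progenitors, at 17.2 ± 1.68 CPM in the MLP, 14.2 ± 3.38 CPM in the aSHF and 13.7 ± 1.94 CPM in the BrM group, which all overlapped. Within each library *Etv4* was higher in the MLP group than in the aSHF and BrM groups. It was near absent from cluster 3 at 0.244 ± 0.0547 CPM (12 UMIs in 2737 cells). *Etv5* (chromosome 16, 22381309 to 22439719, minus strand), the closely related factor, had its highest means in MLPs (35.8 ± 5.87 CPM), ectoderm (35.6 ± 6.92), endoderm (34.4 ± 4.89) and otic vesicle (30.8 ± 7.37). Their ranges overlapped each other and those of BrM (27.6 ± 5.30), cardiac muscle (27.2 ± 6.22) and aSHF (24.2 ± 5.33), so these groups could not be ordered by their ranges. Within each library, however, *Etv5* was higher in the MLP group than in the BrM, cardiac muscle and aSHF groups. In the MLP group *Etv5* was at 31.1 and 31.1 CPM in Rep1 (cHet first), then 43.3 and 37.5 CPM in Rep2. In the aSHF group it was at 22.0 and 18.8, then 31.3 and 24.8 CPM. It was lowest in clusters 13 (1.17) and 3 (1.22). Endothelium joined 2 clusters that differed in these genes. The 329 cells of cluster 20, led by *Etv2* and *Tal1*, held 15.5 to 27.2 CPM of *Etv4* and 25.3 to 30.2 CPM of *Etv5*, whereas the mature cells of cluster 9 held 1.94 to 3.25 and 9.73 to 11.7 CPM.

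**Figure D3:**
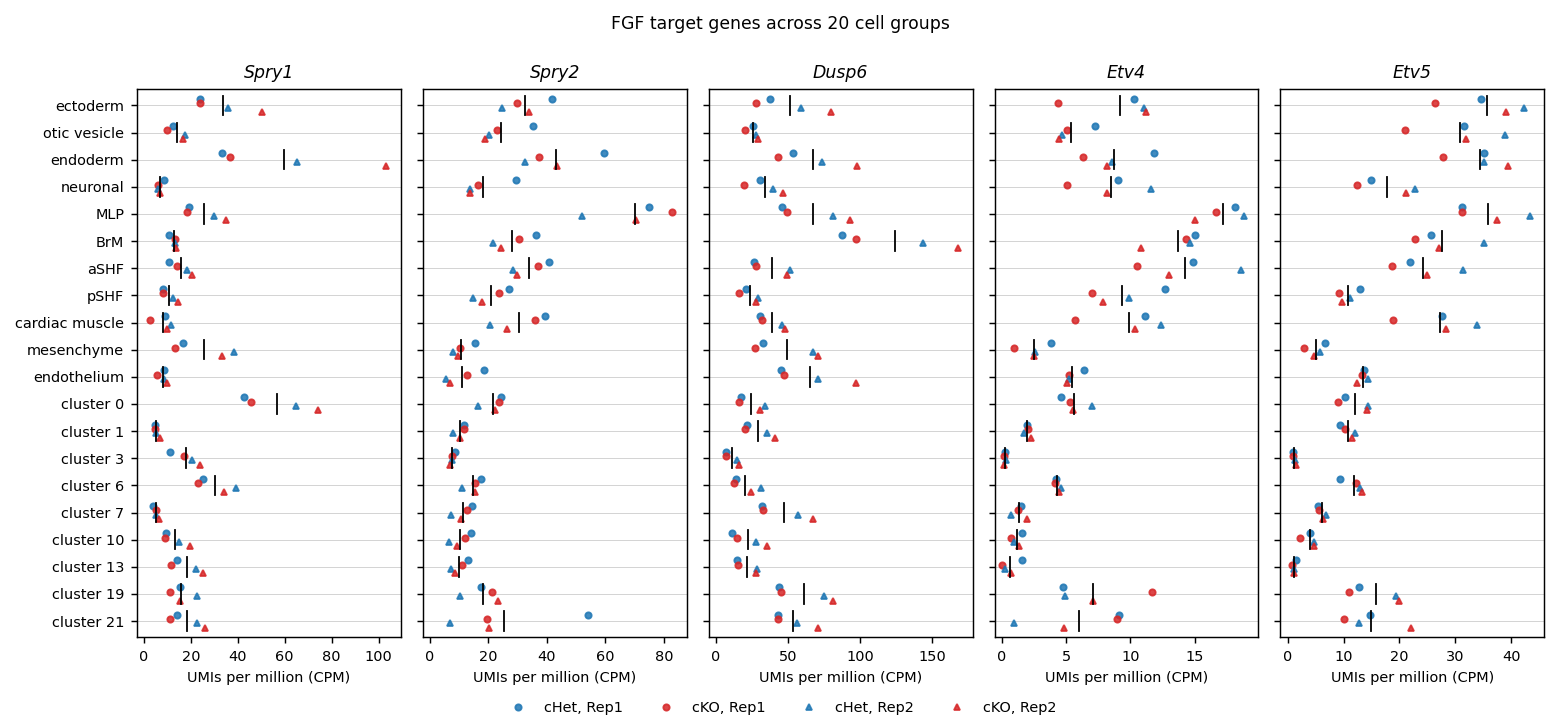
Level of *Spry1*, *Spry2*, *Dusp6*, *Etv4* and *Etv5* (horizontal axes, CPM, linear and scaled for each gene) in 20 cell groups (rows), with 1 point per library coloured by genotype and shaped by replicate, and the mean as a black bar. *Spry2*, *Etv4* and *Etv5* are highest in the MLP group (means 70.0, 17.2 and 35.8), *Dusp6* in the BrM group (124), and the triangles of Rep2 lie above the circles of Rep1 for *Dusp6* in all 20 groups.

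In plain CPM, replicate had a large effect on some levels. Both Rep2 libraries were above both Rep1 libraries in all 20 groups for *Dusp6*, in 19 for *Fgfr1*, in 18 for *Spry1* and in 15 for *Etv5*. The reverse was found for *Spry2* in 16 groups and for *Fgfr2* in 11. The share of all genes with such a separation was not computed, so these counts do not mark these genes as unusual. They were not repeated after the TMM scaling for composition used below, which can change the order. *Etv5* in cluster 7 was at 5.45 and 5.69 plain CPM in Rep1 (cHet first), then 6.91 and 6.23 in Rep2. After TMM scaling it was at 6.19 and 6.43, then 6.06 and 5.57 CPM. *Dusp6* in the BrM group kept its order after scaling (96.8 and 112, then 127 and 151 CPM). Over all genes, libraries of the same replicate deviated together from the mean of their own genotype within a cell group (correlations of 0.65 to 0.82). Levels are therefore compared between groups across the same 4 libraries, and genotypes within a replicate. Ranges over the 4 libraries include this shift between replicates, so groups with overlapping ranges can still differ within each library.

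Sequences upstream of the start sites were available from RefSeq (GRCm38.p6) for 7 of the 10 genes, and those of *Dusp6*, *Spry2* and *Etv5* are shown as examples of the targets. Each is the 250 bases before a start site. Capitals mark matches to CGGAA, 1 form of the site bound by ETS factors, or to its reverse complement. The shorter core GGAA was not searched, and it occurs in lower case in the *Spry2* and *Etv5* windows shown. They lie at chr10:99262981-99263230 (plus strand), chr14:105896820-105897069 (minus strand) and chr16:22438369-22438618 (minus strand).
Dusp6: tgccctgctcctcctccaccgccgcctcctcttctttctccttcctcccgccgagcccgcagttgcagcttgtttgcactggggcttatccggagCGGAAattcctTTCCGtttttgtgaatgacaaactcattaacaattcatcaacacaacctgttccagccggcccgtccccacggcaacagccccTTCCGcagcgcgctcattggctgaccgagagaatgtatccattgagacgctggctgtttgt
Spry2: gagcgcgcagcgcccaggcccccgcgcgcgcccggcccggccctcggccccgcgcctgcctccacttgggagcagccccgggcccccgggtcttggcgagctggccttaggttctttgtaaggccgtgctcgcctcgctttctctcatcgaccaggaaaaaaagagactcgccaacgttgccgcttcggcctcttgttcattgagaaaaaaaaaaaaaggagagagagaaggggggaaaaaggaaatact
Etv5: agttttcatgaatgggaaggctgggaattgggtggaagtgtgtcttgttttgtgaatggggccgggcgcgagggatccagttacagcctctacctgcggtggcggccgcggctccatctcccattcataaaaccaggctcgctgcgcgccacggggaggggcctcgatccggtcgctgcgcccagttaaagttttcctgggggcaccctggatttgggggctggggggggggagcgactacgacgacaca
*Dusp6* held 3 matches, starting 155, 144 and 61 bases before the start site, and was the only 1 of 8 windows of these genes with any match to CGGAA. Of all 32851 windows of this length, 25.2% held at least 1 match on either strand. The letters TGAATGAA, bound by the repressor Capicua, and TGACGTCA, the cAMP response element, were searched likewise on both strands, and neither was found in the 8 windows (1.08% and 1.55% of all windows). A match describes letters only and is not a measured binding site.

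Across the 20 groups, the ETS targets and *Spry2* had similar patterns. On the log2 scale with 1 CPM added, Pearson's r was 0.906 for *Etv4* and *Etv5*, 0.861 for *Spry2* and *Etv4* and 0.840 for *Spry2* and *Etv5*. *Dusp6* was less like them (0.622 with *Etv4*, 0.631 with *Etv5*), and *Spry1* had hardly any relation to *Etv4* (0.167). Among ligands, *Fgf8* was nearest to *Spry2* (0.730) and *Etv5* (0.682). For *Fgfr1*, r was 0.360 with *Spry1*, 0.021 with *Spry2*, -0.132 with *Dusp6*, -0.180 with *Etv4* and -0.284 with *Etv5*. For *Fgfr2*, it was 0.439, -0.053, -0.420, -0.269 and -0.222 with the same targets. These values describe 20 groups that share libraries, depth and clustering.

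Of 9205 genes compared, the 3 most like each gene over the 20 groups were taken. *Il17rd*, which encodes an FGF antagonist, was the 3rd most alike gene for *Spry2* (r = 0.861), *Etv4* (0.845) and *Etv5* (0.796). *Flrt3*, whose product binds FGF receptors, was the most alike gene for *Fgfr1* (0.908). *Rab11fip1* (0.875) and *Capn6* (0.873) led for *Spry2*, *Cdc42ep3* (0.870) and *Capn6* (0.846) for *Etv4*, and *Pkm* (0.806) and *Celf2* (0.80) for *Etv5*. For the ligands they were *9030622O22Rik*, *Uchl1* and *Sycp2l* (*Fgf3*, 0.854 to 0.909), *Lama5*, *Nkx2-6* and *Npm3* (*Fgf8*, 0.882 to 0.898) and *Acyp1*, *Sel1l3* and *Ppm1l* (*Fgf10*, 0.844 to 0.863). *Sp3* (0.898) and *Tubgcp2* (0.895) followed for *Fgfr1*, and *Mboat1*, *Clcc1* and *Twsg1* for *Fgfr2* (0.871 to 0.893). *Spry1* had the least similar neighbours, with *Gbx2*, *Qars* and *Mthfsl* at 0.654 to 0.691, and *Dusp6* had *Tagln2*, *Chst15* and *Edn1* at 0.726 to 0.80.

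Within the epithelia, target genes were higher in the cells with a UMI of *Fgf8*, although a cell without a UMI may still hold the transcript. This split of cells was chosen after the levels above had been seen and is given as a description. Endoderm had 335 cells with and 317 cells without a UMI of *Fgf8*, with medians of 21928 and 19993 UMIs. *Etv5* stood at 51.6 CPM in the former (45.8 to 54.1 over the 4 libraries) and at 15.4 CPM in the latter (6.98 to 24.3). The ratio of these means was 3.36, and it was 3.34 after thinning to 5000 UMIs per cell. *Dusp6* was at 96.4 against 34.8 CPM and *Etv4* at 13.5 against 3.56 CPM, each higher in all 4 libraries, with ratios of 2.77 and 3.79 that became 2.15 and 2.03 after thinning. *Spry1* and *Spry2* were also higher in all 4 libraries, with ratios of 2.87 and 2.31 (1.60 and 1.82 after thinning). At equal depth *Etv4* and *Spry2* were higher in 3 of 4 libraries and the other targets in 4.

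*Fgfr2* went the other way. It was at 79.8 to 89.3 CPM in endoderm cells with a UMI of *Fgf8* and at 131 to 138 CPM in those without, and the ranges were apart (ratio 0.626, and 0.580 after thinning). Ectoderm, with 560 cells with and 547 without a UMI of *Fgf8*, gave the same order: *Etv5* stood at 53.2 against 15.2 CPM (ratio 3.52, thinned 3.22) and *Fgfr2* at 161 against 203 CPM (ratio 0.796, thinned 0.791), again with ranges apart, although after thinning *Fgfr2* was lower in 3 of 4 libraries. *Spry2* (1.51) and *Dusp6* (1.57) differed less there than in endoderm. *Fgfr1* had ratios of 1.17 in endoderm and 1.14 in ectoderm and was higher in 3 of 4 libraries in each. Cells of different epithelial subtypes were not separated, so how far this split follows subtypes was not tested.

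**Figure D4:**
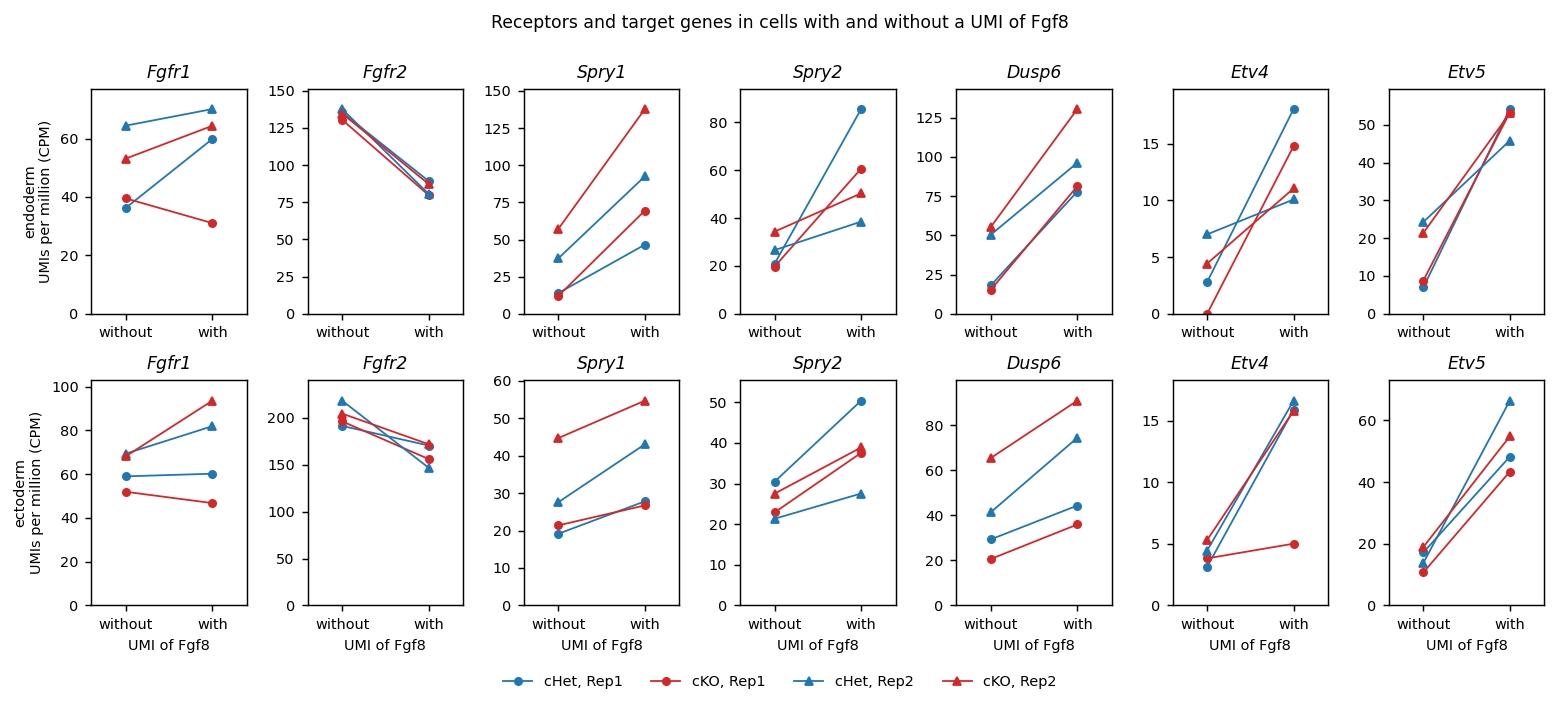
Level (vertical axes, CPM from 0) of receptor and target genes in cells without (left) and with (right) a UMI of *Fgf8*, in endoderm (top) and ectoderm (bottom), with 1 line per library coloured by genotype. *Etv5* is higher with *Fgf8* in all 4 libraries of both groups (means 51.6 against 15.4 and 53.2 against 15.2 CPM), and *Fgfr2* is lower (84.3 against 135 and 161 against 203 CPM).

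Cells were also split by a UMI of another ligand. Of the 122 endoderm cells with a UMI of *Fgf3*, only 6 of them in cKO of Rep1, 75.0% to 85.7% per library had a UMI of *Fgf8*, compared with 35.6% to 50.7% of the endoderm cells without *Fgf3*. These shares were not compared at equal depth. *Fgfr2* in the cells with *Fgf3* was at 41.6 to 93.2 CPM against 111 to 122 CPM in the other endoderm cells, at median depths of 22214 and 20730 UMIs. In the MLP group, 1122 cells with and 1627 cells without a UMI of *Fgf10* had nearly equal median depths (16892 and 16790 UMIs). *Fgf8* was at 25.8 to 42.7 CPM in the former and at 11.5 to 14.6 CPM in the latter, and *Etv5* at 51.0 against 24.3 CPM (ratio 2.10, thinned 2.20). In the BrM group the same split gave smaller differences, with *Dusp6* at a ratio of 1.42 (1.16 after thinning), *Fgfr1* at 0.826 and *Spry1* at 0.660. The BrM group joins clusters 4 and 14, in which *Spry1* was at 6.06 to 7.94 and at 17.3 to 31.4 CPM, and the part of these clusters in its ratio was not tested.

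Between genotypes, none of the 10 genes passed the threshold in any cell group. Counts summed per library and group were compared with edgeR's quasi-likelihood test with the replicate as a block, and 0 of 169 tests of the 10 genes reached an adjusted p under 0.05 (Benjamini-Hochberg over all genes of a group). Over all genes in all groups 0.527% of tests were called, from 0% in the aSHF and neuronal groups to 2.10% in cluster 0. Of the named groups, the share was 1.18% in BrM, 0.785% in pSHF, 0.504% in otic vesicle, 0.434% in mesenchyme, 0.104% in endoderm, 0.069% in endothelium, 0.059% in cardiac muscle, 0.0235% in ectoderm and 0.0215% in MLP. Of the clusters, it was 1.82% in 3, 0.956% in 6, 0.621% in 7, 0.43% in 1, 0.403% in 21, 0.225% in 10, 0.211% in 13 and 0.0552% in 19. At an unadjusted p under 0.05 by edgeR, 31 of the 169 tests (18.3%) passed, compared with 6.39% of the tests of all genes. These tests repeat 10 genes over groups that share the same libraries. The genes were also chosen with earlier results of these data known, so this share is a description and no evidence of an excess. DESeq2 called 0 (0.0317% of its tests of all genes). Without a filter on low counts edgeR called 4 of 196 tests (0.71% of all), and without the replicate block it called 0 (0% of all). Of the fitted log2 fold changes 117 of 169 (69.2%) were within 0.25 of 0. Over all genes of a group this share was 66.2% in cluster 21 and 73.1% to 83.7% in every other group. The share of the 10 genes, taken over all groups together, was thus below that of every group but cluster 21. In summed counts, fewer expressing cells and less RNA per cell cannot be told apart. The labels do not say whether embryos of the 2 replicates came from separate litters, so p-values measure the spread between these libraries. Values of genotype comparisons are CPM after TMM scaling, unless called plain CPM, and are given in the order of the libraries above, Rep1 before Rep2 and cHet before cKO.

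**Figure D5:**
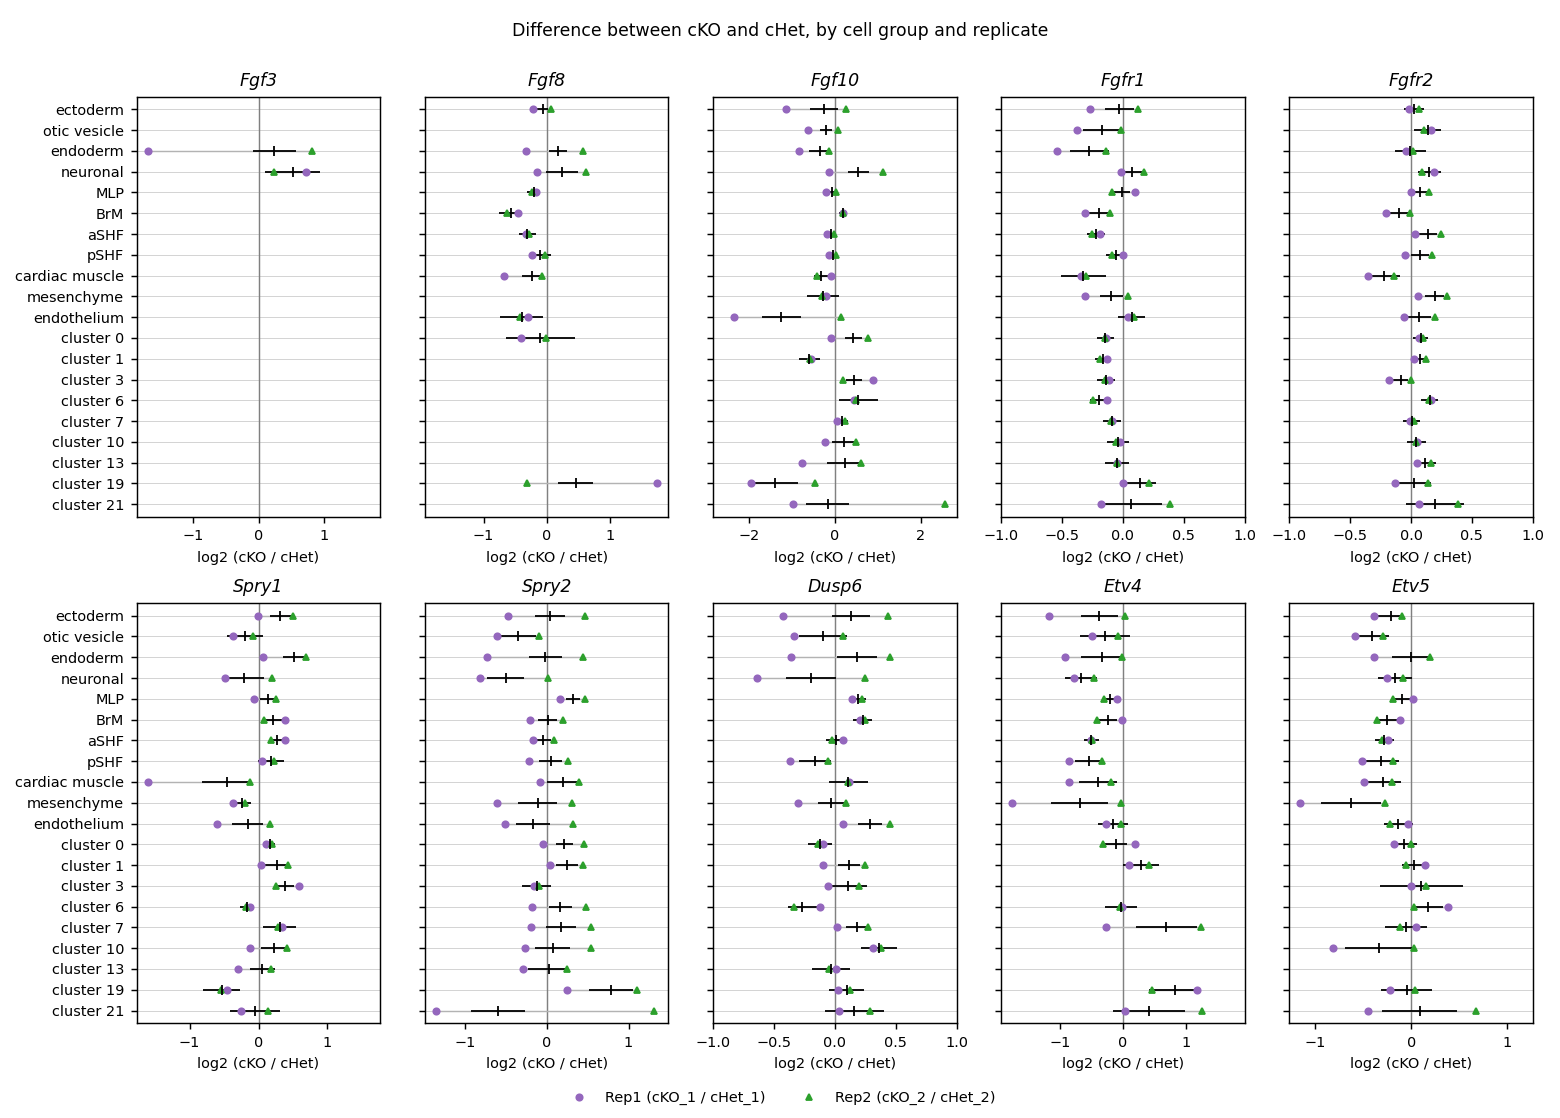
Log2 ratio of cKO to cHet (horizontal axes, scaled for each gene) for the 10 genes in each cell group in which they were tested (rows), with Rep1 as purple circles, Rep2 as green triangles and the fitted value with its standard error in black. Fitted values of *Etv4* lie below 0 in 13 of 17 groups and those of *Etv5* in 15 of 19, those of *Fgfr2* all lie within 0.25 of 0, and no value passed the adjusted threshold.

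Of the ligands, *Fgf8* in ectoderm was at 250 and 215 CPM in Rep1, then 186 and 196 CPM in Rep2. The replicates went in opposite directions, and the fitted log2 fold change was -0.06 ± 0.09 (SE, adjusted p = 0.9995). Endoderm gave 268 and 214 CPM in Rep1 but 138 and 206 CPM in Rep2, also in opposite directions (0.18 ± 0.15, adjusted p = 0.9999). In the BrM, MLP and aSHF groups *Fgf8* was low, and cKO was below cHet in both replicates: 6.58 and 4.79, then 6.71 and 4.31 CPM in the BrM group (-0.57 ± 0.18, adjusted p = 0.164), 22.9 and 20.3, then 23.1 and 19.7 CPM in the MLP group (-0.21 ± 0.11, adjusted p = 0.939), and 10.4 and 8.32, then 11.2 and 9.14 CPM in the aSHF group (-0.30 ± 0.14, adjusted p = 0.999). After TMM scaling both cKO libraries were below both cHet libraries in each of these 3 groups, but in plain CPM in the BrM group alone: cKO of Rep2 lay above cHet of Rep1 in the MLP group (22.1 and 20.3 plain CPM) and in the aSHF group (10.3 and 9.14 plain CPM). With TMM scaling the separation held in 4 of 11 groups tested for *Fgf8* and in none in the other direction, where 8.05% of all tests had both cKO libraries lower and 7.87% had both higher. None of these differences passed the adjusted threshold. The BrM, MLP and aSHF pairs were chosen after their values had been seen.

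*Fgf10* in the BrM group, its main source, was at 158 and 179 CPM in Rep1, then 227 and 257 CPM in Rep2. Within each replicate cKO was higher by a like amount, although the genotypes overlapped across replicates (0.18 ± 0.07, adjusted p = 0.397). *Fgf10* was fitted lower in 12 of 20 groups and higher in 8. The largest fitted difference, in cluster 19 (-1.40 ± 0.54, adjusted p = 0.977), rested on few UMIs: 13.9 and 3.03, then 3.54 and 2.37 CPM from 44 UMIs in all. In endothelium *Fgf10* was at 12.3 and 2.25, then 1.89 and 2.11 CPM (-1.24 ± 0.45, adjusted p = 0.729), so that a single library, cHet of Rep1, was high, and with doublets kept the fitted value was 0.0061. That library also had more cells of the *Etv2*-positive cluster 20 (111 of 446 endothelial cells, against 37 of 275, 84 of 526 and 97 of 664), and the part of these cells in the difference was not tested.

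*Fgf3* could be tested in endoderm and in the neuronal group. Endoderm held 16.9 and 4.86 CPM in Rep1 and 12.7 and 22.9 CPM in Rep2. The replicates disagreed in direction (0.24 ± 0.32, adjusted p = 0.9999), and the low value of cKO in Rep1 came from 7 UMIs in 65 cells.

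For the receptors, too, no fitted difference passed the adjusted threshold. *Fgfr1* in the MLP group was at 88.4 and 94.6, then 109 and 102 CPM, with replicates in opposite directions (-0.01 ± 0.07, adjusted p = 0.995). Over all groups *Fgfr1* was lower in both replicates in 13 of 20 (65.0%), where 25.2% of all tests were, and 18 of 20 fitted values were within 0.25 of 0. The lowest was in cardiac muscle at 26.7 and 20.9, then 30.9 and 24.8 CPM (-0.32 ± 0.19, adjusted p = 0.9995). *Fgfr2* in ectoderm was at 204 and 201, then 159 and 166 CPM (0.03 ± 0.08, adjusted p = 0.9995). The replicates differed more than the genotypes here after TMM scaling only. In plain CPM the same libraries were at 180 and 177, then 180 and 186. Over all groups *Fgfr2* was fitted higher in 16 of 20, where 50.6% of all tests were, and was higher in both replicates in 10 of 20, where 26.0% were. All 20 fitted values were within 0.25 of 0, the lowest in cardiac muscle (-0.23) and the highest in cluster 21 (0.20).

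For the inhibitors no fitted value passed the adjusted threshold either. *Spry1* in endoderm was at 38.3 and 40.3 CPM in Rep1, then 57.9 and 94.1 CPM in Rep2. The difference lay almost wholly in Rep2, and the genotypes overlapped (0.52 ± 0.16, adjusted p = 0.537). The lowest adjusted p of all 169 tests was that of *Spry1* in cluster 3, at 12.6 and 19.1, then 18.0 and 21.4 CPM, where both cKO libraries were above both cHet libraries after TMM scaling but not in plain CPM (0.38 ± 0.12, adjusted p = 0.136). *Spry1* and *Spry2* were each fitted higher in 12 of 20 groups, a share near the 50.6% of all tests. *Spry2* in the MLP group was at 84.4 and 94.7, then 45.4 and 62.7 CPM, higher in cKO within each replicate but with a larger gap between replicates (0.32 ± 0.08, adjusted p = 0.274). With cells of at least 1000 genes this value was 0.0799 (adjusted p = 0.9985). *Spry2* went in opposite directions in the 2 replicates in 15 of 20 groups.

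*Dusp6* in the BrM group was at 96.8 and 112 CPM in Rep1, then 127 and 151 CPM in Rep2. cKO was higher in each replicate, and the genotypes overlapped across replicates (0.23 ± 0.08, adjusted p = 0.195). Over all groups *Dusp6* was fitted higher in 13 of 20, with a median of 0.11, and was higher in both replicates in 8 of 20, where 26.0% of all tests were.

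The ETS targets were fitted below 0 in most groups, and none of these values passed the adjusted threshold. *Etv4* in the MLP group, where it was highest, was at 20.4 and 19.1 CPM in Rep1, then 16.5 and 13.4 CPM in Rep2. cKO was lower in each replicate, and the genotypes overlapped across replicates (-0.21 ± 0.12, adjusted p = 0.973). In the aSHF group *Etv4* was at 17.0 and 11.9, then 16.3 and 11.6 CPM, so that both cKO libraries were below both cHet libraries by a like amount (-0.50 ± 0.12, adjusted p = 0.833 and unadjusted p = 0.00327 by edgeR). The pSHF group gave 14.5 and 7.86, then 8.82 and 6.97 CPM, also separate (-0.55 ± 0.21, adjusted p = 0.470). These 2 groups were chosen after their values had been seen.

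Over all groups *Etv4* was fitted lower in 13 of 17 with a median of -0.24, was lower in both replicates in 11 of 17 (64.7%, against 25.2% of all tests) and was separate and lower in 6 (35.3%, against 8.05%). The highest fitted value was in cluster 19, at 5.55 and 13.4, then 4.30 and 6.22 CPM (0.82 ± 0.41, adjusted p = 1). *Etv5* in the MLP group was at 35.1 and 35.6, then 38.0 and 33.4 CPM, with replicates in opposite directions (-0.10 ± 0.09, adjusted p = 0.994). It was nonetheless fitted lower in 15 of 19 groups with a median of -0.13 and lower in both replicates in 10. *Etv4* and *Etv5* were both fitted lower in 12 of the 17 groups in which both were tested, both higher in 2 and opposite in 3. The groups share the 4 libraries, so these counts are not counts of independent samples.

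Of 64 further FGF pathway genes in 5 lists, 56 were tested in at least 1 group. In 902 tests 6 passed the adjusted threshold, 4 higher and 2 lower in cKO, and 110 had an unadjusted p under 0.05. Of the tests of all genes, 0.527% and 6.39% did so. The lists were chosen with earlier results of these data known, and their tests repeat genes over groups that share libraries. Their shares, here and by list below, are thus descriptions and no evidence of an excess. The list of other FGF ligands (19 genes, 13 tested) held the 4 that were higher. *Fgf13*, an intracellular FGF homologous factor that binds sodium channels and no FGF receptor, rose in cluster 3 from 12.4 to 24.9 CPM in Rep1 and from 12.6 to 27.9 CPM in Rep2 (1.09 ± 0.12, adjusted p = 1.079e-06). In cluster 0 it rose from 10.1 to 16.8 and from 11.6 to 18.9 CPM (0.72 ± 0.12, adjusted p = 0.000106). Both cKO libraries were above both cHet libraries in each cluster. *Fgf12*, of the same intracellular family, rose in cluster 3 from 9.94 to 16.4 and from 6.17 to 16.3 CPM (1.09 ± 0.16, adjusted p = 0.000148). Clusters 0 and 3 had the most calls of all genes (2.10% and 1.82%).

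Among secreted ligands, *Fgf9* rose in the BrM group from 3.80 to 7.52 CPM in Rep1 and from 7.69 to 12.7 CPM in Rep2 (0.80 ± 0.16, adjusted p = 0.0106), where 1.18% of all genes were called. cKO was higher in each replicate, and cKO of Rep1 lay just below cHet of Rep2. Of the 11 heparan sulfate enzymes 2 were called. *Hs6st2*, a sulfotransferase, fell in the otic vesicle from 178 to 102 and from 126 to 98.6 CPM (-0.55 ± 0.12, adjusted p = 0.0468), where 0.504% of all genes were called. *Sulf1*, which removes sulfate groups from heparan sulfate, fell in cluster 21, led by *Barx1* and *Dlx2*, from 55.7 to 19.1 and from 54.3 to 33.3 CPM (-1.12 ± 0.27, adjusted p = 0.0158), where 0.403% of all genes were called. Of these 6 calls, edgeR without the replicate block made 0, and DESeq2 called *Fgf13* in cluster 3 alone. With RLE size factors *Fgf9* (adjusted p = 0.0629), *Hs6st2* (0.109) and *Sulf1* (0.0812) no longer passed, with thinned cells *Fgf12* and *Fgf13* in cluster 3 alone did, and fits that left out a library, which also had to drop the block, made at most 1 call in the 5 lists. None of the 8 receptors and co-receptors, 16 signal transducers or 10 other targets and feedback inhibitors was called by edgeR. At an unadjusted p under 0.05 were 21 of 80, 10 of 313 and 32 of 170 of their tests, where 6.39% of the tests of all genes were. The genes with the highest levels in 4 of the 5 lists were, by mean plain CPM, *Fgf13* in cardiac muscle (206 CPM), *Flrt2* in mesenchyme (880 CPM), *Sulf1* in cluster 3 (651 CPM) and *Spred1* in cluster 7 (178 CPM).

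Finally, the genotype effect was compared between the 20 groups in a single model with the library as a block. The effect differed between groups for 173 of 16834 genes (1.03%) at an adjusted p under 0.05, and for 0 of the 10 FGF genes. At an unadjusted p under 0.05 were 5 of the 10, and 6.8% of all genes. The 10 genes were chosen with earlier results of these data known, so this share is a description as well. Without a filter on low counts *Spry1* (adjusted p = 7.144e-05 by edgeR), *Spry2*, *Dusp6*, *Fgf10* and *Fgf8* were called, where 4.29% of all genes were. With the filter, the lowest value was that of *Spry1* (F = 2.81, adjusted p = 0.147 and unadjusted p = 0.00291 by edgeR), followed by *Fgf10* (adjusted p = 0.283) and *Fgfr2* (0.380).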

How the data were processed

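Droplet-based 3′ RNA-seq was available for 4 libraries, 2 of each genotype. The authors deposited filtered matrices of UMI counts made with Cell Ranger against mm10. The file headers name version 7.0.1 for Rep1 and 8.0.1 for Rep2, and the labels name 8.0.1.

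A barcode needed 3000 genes or more, and no more than 10% mitochondrial and 5% hemoglobin UMIs. Doublets were scored with Scrublet in scanpy 1.11.5, and the highest scores were removed down to the score that reached the share expected for each kit (0.8% per 1000 cells for Next GEM, 0.4% for GEM-X). With ties this took 4.03% to 5.78% of barcodes, where 3.90% to 5.33% were expected. Cells were scaled to 10000 UMIs and clustered on 2000 variable genes without the FGF genes, with 30 principal components, a correction for replicate, 20 neighbours and Leiden clustering at a resolution of 0.8 (leidenalg 0.10.2). A cluster took a name where 3 or more markers reached 10% of its cells and exceeded the level of all remaining cells 2-fold, with 5 CPM added. Clusters with the same name were joined.

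Counts were summed per library and group. Levels are plain CPM, and percentages of cells were also taken after thinning every cell to 5000 UMIs. Genotypes were compared per group with edgeR 4.0.16 (filterByExpr, TMM, quasi-likelihood F-test) with the replicate as a block, adjusted by Benjamini-Hochberg over all 8694 to 14632 genes tested, at a threshold of 0.05. A library's group held 46 to 1386 cells and 1013572 to 25641365 UMIs, so precision is lowest for small groups. Floors and intervals cover counting error only. The replicate numbers come from the labels. Libraries of the same replicate deviated together from the mean of their own genotype within a cell group (correlations of 0.65 to 0.82), along with kit and pool. Whether genotype effects differed between groups was tested in 1 edgeR model with the library as a block. Alternatives were RLE size factors, no low-count filter, no replicate block, DESeq2 1.42.0, each library left out, thinned cells, FGF genes kept in the clustering, at least 1000 genes per cell and doublets kept.

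Patterns across groups were compared for the 9205 genes that reached 20 CPM, on log2(CPM + 1). Folds are given for each member in its highest group, and for called genes of the 5 wider lists with the highest-level gene of 4 of them. Some items are not reported here. Further member and group pairs were chosen after their values were seen. Members and lists were chosen with earlier results of these data known. Positions follow GENCODE M21 (32235 identifiers matched), and that of *Fgfr2* follows RefSeq.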

Additional observations from a re-analysis of the deposited data

Results flagged for a closer look

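For 2 of 59 genes of the wider lists, the genotype effect differed between the 20 cell groups by the edgeR test of that difference, which called 1.03% of all genes. Without the low-count filter it called 10 of 64, and 4.29% of all genes. *Sulf1*, which removes sulfate groups from heparan sulfate, had F = 4.16 (adjusted p = 0.0141). Its fitted log2 fold change was above 0 in 12 groups and below 0 in 8, from -1.12 in cluster 21 to 0.28 in cluster 10. In endothelium *Sulf1* was at 19.01 and 3.59 CPM in Rep1 (cHet, then cKO) and at 19.8 and 14.5 CPM in Rep2 (-1.05 ± 0.28, adjusted p = 0.3997 by edgeR), and in the neuronal group at 127 and 67.5, then 76.2 and 55.3 CPM (-0.71 ± 0.12, adjusted p = 0.2603 by edgeR), so that neither passed within its group. In cluster 10 it was at 247 and 326, then 255 and 288 CPM (0.28 ± 0.08, adjusted p = 0.1617 by edgeR).

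*Flrt2*, which encodes a membrane protein that interacts with FGF receptors, had F = 3.78 (adjusted p = 0.0270). It was above 0 in 12 groups and below 0 in 8, from -1.48 ± 0.36 in the otic vesicle (adjusted p = 0.0796 by edgeR) to 0.54 ± 0.22 in endoderm (adjusted p = 0.9999 by edgeR), neither past the threshold. The otic vesicle held 66.2 and 9.16, then 12.5 and 10.2 CPM, so that a single library, cHet of Rep1, was high. The neuronal group held 122 and 42.4, then 6.33 and 11.7 CPM, with replicates in opposite directions.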

How the results depend on the processing

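The direction of the fold change of each of the 10 genes in its highest group was the same in 75 of 79 alternative values, those with a library left out not counted. The direction turned for *Fgf3* in endoderm with DESeq2 (-0.30), for *Fgf8* in ectoderm with thinned cells (0.0915) and with a minimum of 1000 genes (0.0484), and for *Fgfr1* in the MLP group with DESeq2 (0.00058). Among other named values it turned for *Fgf10* in endothelium with doublets kept (0.0061). Calls of the 10 genes stayed at 0 except without a filter on low counts, where 4 of 196 tests passed: *Etv4* in the aSHF group (-0.51, adjusted p = 0.0329), *Fgf10* in endothelium (-1.24, adjusted p = 0.00499) and in the neuronal group, and *Spry2* in the MLP group (0.32, adjusted p = 0.0168). With the filter, the 2 replicates of neuronal *Fgf10* went in opposite directions (-0.13 and 1.12), and a single library, cKO of Rep2, was high at 150.3 CPM against 43.1 to 68.8 CPM. The interaction without this filter called 5 of the 10 genes (*Spry1*, *Spry2*, *Dusp6*, *Fgf10* and *Fgf8*). The wider lists had 6 calls, against 1 by DESeq2, 21 without the low-count filter, 4 with RLE size factors and 5 with thinned cells. These are not always the same calls: 3 of the 6 stayed with RLE size factors (*Fgf12* and *Fgf13* in cluster 3 and *Fgf13* in cluster 0) and 2 with thinned cells (the same without cluster 0, where *Fgf13* had an adjusted p of 0.395 by edgeR). In the 11 named groups, which held 2 of the 6 calls, the count was 4 with FGF genes kept in the clustering, 5 with a minimum of 1000 genes and 4 with doublets kept. With a library left out, the fold rests on the replicate that stays whole, with no test. Its lower and higher values differed in sign for *Fgf3* in endoderm (-1.69 to 0.82), *Fgf8* in ectoderm (-0.22 to 0.0733), *Fgfr1* in the MLP group (-0.0940 to 0.0986), *Fgfr2* in ectoderm (-0.0195 to 0.0654) and *Etv5* in the MLP group (-0.19 to 0.0219), likewise for *Fgf8* in endoderm (-0.32 to 0.58) and *Fgf10* in endothelium (-2.36 to 0.15), and *Spry1* in endoderm ranged from 0.0721 to 0.70. Counts of calls with a library left out come from fits that also drop the block, with the lone library assumed to vary like the other genotype. They gave 0 to 1 calls in the wider lists and 0 to 25 over all genes, and the change cannot be ascribed to the library alone. Over all genes, 1336 calls became 2948 without the filter and 122 with DESeq2. *Spry2* in the MLP group was 0.0799 with a minimum of 1000 genes. Thinning lowered the mean shares of cells with a UMI to 4.89% (*Fgf3*) and 35.2% (*Fgf8*) in endoderm, 32.6% (*Fgf8*) in ectoderm, 51.9% (*Fgf10*) in the BrM group, and 0.297% (*Fgf3*) and 0.962% (*Fgf8*) in endothelium. The cause of these changes was not tested.

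Without the replicate block, 0 of 169 tests of the 10 genes, 0 of 902 tests of the wider lists and 0 genes in all were called with the 4 libraries, against 1336 with the block.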

Other observations

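Levels here are plain CPM. Further FGF pathway genes are given by the group in which they were highest, and were chosen after their values had been seen. *Fgf1* stood at 53.2 CPM in the MLP group (35.3 to 72.6 over the 4 libraries), with no overlap with the next group. *Fgf9* was highest in the otic vesicle (58.7 CPM), with a range that overlapped ectoderm, and *Fgf4* in endoderm (11.8 CPM). *Fgf15* was highest in endoderm by its mean (15.4 ± 15.4 CPM), but a single library at 37.8 CPM stood high, and its lowest at 4.41 CPM lay within the range of the neuronal group. The MLP group was also highest for the ETS factor *Etv1* (61.2 CPM, with BrM at 56.1) and the inhibitors *Il17rd* (80.1 CPM, with endoderm at 71.6) and *Spry4* (12.7 CPM), each with a range that overlapped the next group.

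In the cHet library of Rep1, the 6105 barcodes with at most 1000 UMIs held *Spry2* at 58.0 CPM, compared with 28.9 CPM in the kept cells. The same values were 5.06 and 22.1 CPM in cKO of Rep1, 17.0 and 17.1 CPM in cHet of Rep2, and 20.6 and 21.5 CPM in cKO of Rep2.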
